A study of Mus musculus with 6 samples.

Results

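AP-1 and EGR immediate early genes were examined in whole liver RNA of a mouse model of nonalcoholic steatohepatitis (NASH) with and without induced lipophagy. The 10 genes Fos, Fosb, Fosl2, Jun, Junb, Jund, Egr1, Ier2, Atf3 and Dusp1 were chosen by symbol, and each had 1 row among the 24346 gene rows. All mice were male, of strain C57BL/6 in the labels and C57BL/6J in the methods, and 8 weeks old when a high-fat diet that lacks choline and holds free amino acids in place of protein (CDAHFD) began. They were fed CDAHFD for 6 weeks, received 1 intravenous dose of an adeno-associated virus of serotype 8 driven by the liver-specific thyroxine-binding globulin promoter, and were analysed after 2 weeks on normal chow. The 3 control mice received LDTS-LIR mut, in which the droplet-targeting sequence (LDTS) is joined to an LC3-interacting region (LIR) that no longer binds LC3. The 3 lipophagy mice received LDTS-eLIR, in which the LIR is an engineered active one, so both groups carried the virus and the droplet-targeting part and were recovering from the diet. No mice without a vector or on normal chow throughout were analysed here.

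AP-1 is a dimer of leucine zipper proteins, in which a JUN protein pairs with a FOS, JUN or ATF protein, and it binds DNA at short palindromic sites. EGR1 is a zinc finger factor that binds GC-rich sites. The genes of both are immediate early genes: in resting cells they are transcribed little, and serum, growth factors, cytokines or stress raise them within minutes through serum response factor (SRF), its ternary complex partners, CREB and existing AP-1. Their mRNAs are short-lived, so the level in a tissue also follows the minutes before sampling. In liver they are known for their rise after partial hepatectomy, in injury and inflammation, and during tissue handling. DUSP1, a phosphatase that inactivates MAP kinases, is made in the same response and limits it, and its gene is also induced by glucocorticoids.

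The promoters of Fos, Jun, Atf3 and Dusp1 are shown because CREB, ATF and JUN proteins are known to bind short sites in promoters of such genes. The sequences are from RefSeq on GRCm38.p6, the mouse build of the deposited data, and 8 of the 10 genes were matched in that table (not Egr1 and Ier2). Each is written 5' to 3' on the strand of the gene and ends at the base before the RefSeq start, except that of Dusp1, which stops 47 bases earlier where an annotated exon begins. Capitals mark the short CREB site TGACG, its reverse complement, the 8-base sites TGACNTCA to which CREB, ATF and JUN dimers bind, and the TATA box TATAAA.
Fos, chr12:85473740-85473889, plus strand: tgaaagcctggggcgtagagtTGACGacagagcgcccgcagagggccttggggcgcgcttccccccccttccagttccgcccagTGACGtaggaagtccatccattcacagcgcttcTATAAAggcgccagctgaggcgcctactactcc
Jun, chr4:95052223-95052372, minus strand: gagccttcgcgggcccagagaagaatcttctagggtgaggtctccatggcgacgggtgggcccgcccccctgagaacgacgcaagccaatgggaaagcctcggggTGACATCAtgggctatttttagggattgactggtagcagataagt
Atf3, chr1:191183334-191183483, minus strand: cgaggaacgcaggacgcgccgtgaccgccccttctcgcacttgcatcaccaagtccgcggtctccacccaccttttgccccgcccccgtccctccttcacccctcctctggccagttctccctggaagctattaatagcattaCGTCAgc
Dusp1, chr17:26508520-26508622, minus strand: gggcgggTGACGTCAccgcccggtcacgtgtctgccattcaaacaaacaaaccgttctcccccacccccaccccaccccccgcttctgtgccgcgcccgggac

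The Fos stretch held TGACG at 129 to 125 and at 66 to 62 bases before the start and TATAAA at 33 to 28 bases before it. The Jun stretch held TGACATCA, the known jun-type site, at 45 to 38 bases before the start. In Dusp1 the palindrome TGACGTCA lay at 143 to 136 bases before the start, and it contains TGACG on both strands. The Atf3 stretch held TGACG on the opposite strand at 7 to 3 bases before the start, and its last 7 bases lie in an annotated exon. GENCODE places longer transcripts of Atf3 and Dusp1 upstream of these starts, so both stretches lie inside the annotated genes, whose spans are chr1:191170296-191218039 and chr17:26505590-26562128.

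Motifs were counted over the 250 bases before the start in all 32851 RefSeq promoters, on both strands except TATAAA, which was read on the gene's strand. TGACG was found in 17.8% of all promoters and in 5 of the 8 matched genes (Fos, Fosb, Junb, Atf3 and Dusp1). TGACNTCA was found in 7.49% of all promoters and in 2 of 8 (Jun and Dusp1), and these matches can overlap TGACG. GCGNGGGCG, the EGR site, was found in 4.7% and in 2 of 8 (Fosb and Fosl2). TATAAA was found in 7.59% and in 1 of 8 (Fos). TGANTCA, the 7-base AP-1 site, was found in 6.75% and in 0 of 8, and the CArG box of SRF in 1.47% and in 0 of 8. The Jund window ends at chr8:70697738, well upstream of the GENCODE start of the gene at 70698949, so its lack of matches does not describe DNA next to that start. The matches describe these windows only.

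**Figure D1:**
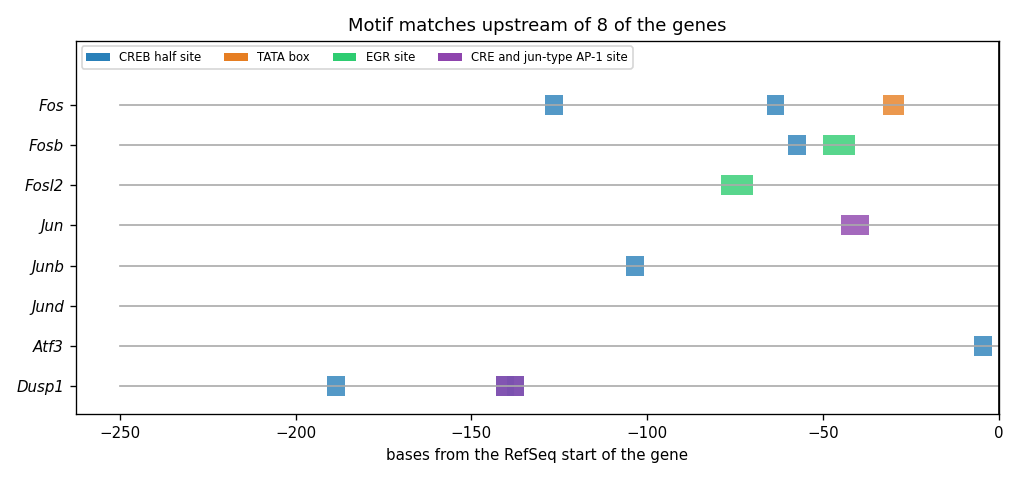
Position of each motif in the 250 bases before the RefSeq start of the 8 matched genes, in bases upstream of the start on the x axis, with 1 row per gene and 1 colour per motif. TGACG is present in 5 of 8 genes, and the 2 genes with an EGR site are Fosb and Fosl2. The Jund window lies well upstream of the GENCODE start of that gene.

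Expression was given as FPKM, fragments per transcript length and per mapped total, so levels can be compared between genes. Depth, estimated from the steps in which low FPKM rise, was between 22.9 and 34.0 M fragments per liver, highest in control 3. The sum of FPKM was 622696 to 681138 in control livers and 709993 to 782392 in lipophagy livers, so a gene at the same share of all FPKM had a higher FPKM in lipophagy livers. Hepatocyte markers were high in every liver (Alb, albumin, 35470 to 64089 FPKM), as the label liver implies, and stellate cell, macrophage, endothelial and bile duct markers were also present. In whole liver, fewer cells of a type and less RNA per cell cannot be told apart. Nothing in the labels says whether mice of a group shared a litter or cage, so p values measure the spread between these 6 livers.

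The order of mean levels over the 6 livers was Junb (28.5 FPKM), Jund (28.4), Ier2 (16.9), Dusp1 (11.0), Egr1 (10.3), Jun (8.34), Atf3 (5.85), Fosl2 (1.40), Fos (1.08) and Fosb (0.0182). Neighbours whose ranges over the 6 livers overlapped were Junb and Jund, Ier2 and Dusp1, Dusp1 and Egr1, Egr1 and Jun, Jun and Atf3, and Fosl2 and Fos. The ranges of Jund and Ier2, of Atf3 and Fosl2, and of Fos and Fosb did not overlap. By mean level, the FOS family genes were the lowest of the 10 and Junb and Jund the highest. The order was not the same in every liver: in lipophagy 3, Dusp1 (29.6 FPKM) lay above Junb (25.5) and Jund (22.1). The range of Egr1 (1.76 to 29.6 FPKM) overlapped those of Fosl2, Fos, Junb and Jund.

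On the log2(FPKM + 1) scale, 8 of the 10 genes were lower in lipophagy livers than in controls and 2 were higher (Fosb and Dusp1), of which Fosb turned lower when each liver was scaled to the same sum of FPKM. Over all 11493 genes tested, 45.5% had a lower mean in lipophagy livers. All but Fosb reached a mean of 0.5 FPKM and were tested, and 0 of these 9 passed an adjusted p of 0.05 in limma, against 3 of all tested genes (0.0261%). At an unadjusted p below 0.05, 5 of the 9 were lower (Fos, Fosl2, Jun, Jund and Atf3) and 0 were higher, against 7.97% and 11.5% of all tested genes in these directions. In 3 of 9 (Fosl2, Jun and Atf3) every lipophagy liver lay below every control liver, a pattern found in 10.8% of all tested genes. In 0 of 9 every lipophagy liver lay above every control liver, which held for 15.4% of all tested genes. The median log2 change was -0.34 over the 10 genes and -0.35 over the 9 tested, where that of all tested genes was 0.020. These changes are on the log2(FPKM + 1) scale, which understates the change of genes near 1 FPKM such as Fos and Fosl2.

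**Figure D2:**
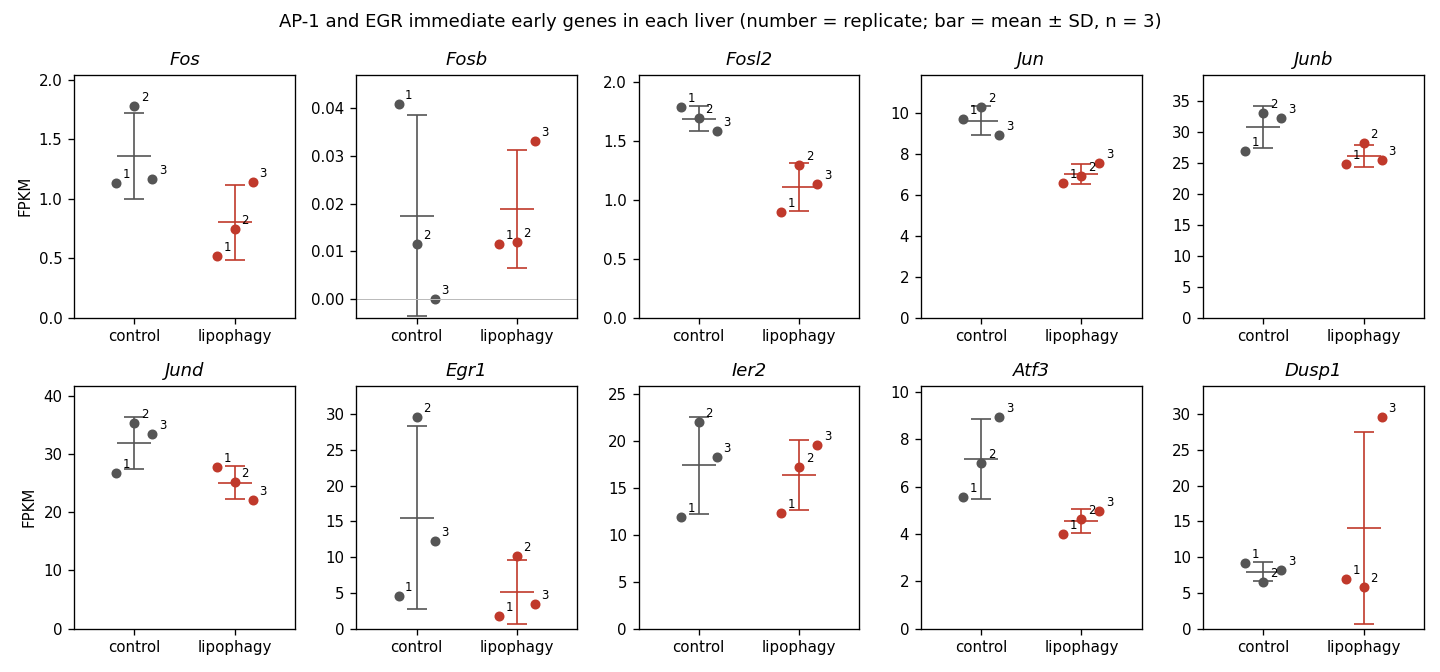
FPKM of each of the 10 genes in the 6 livers (points, 1 per liver; bars, mean and SD of 3 livers per group), with a separate y axis per gene. Fosl2, Jun and Atf3 have every lipophagy liver below every control liver, while Egr1 and Dusp1 spread widely within groups.

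Among FOS proteins, which cannot pair with themselves and need a JUN partner, Fos had 1.13, 1.77 and 1.16 FPKM in controls 1, 2 and 3. In the lipophagy group it had 0.520, 0.742 and 1.14 FPKM, in the same order of numbers, which is kept throughout. Control 2 was highest, and lipophagy 3 lay between control 1 and control 3, so that the groups overlapped. The mean was 1.36 ± 0.361 FPKM (SD, n = 3) in controls and 0.801 ± 0.315 in lipophagy livers, with a log2 change of -0.39 (SE 0.15, limma adjusted p = 0.223). These levels rested on an estimated 24.3 to 82.7 fragments per liver, the fewest of the tested genes, and counting error alone was 20.3% of the value in lipophagy 1.

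Fosl2 encodes FRA2, a FOS protein without the strong activation domain of FOS, and its induction is slower. It had 1.79, 1.69 and 1.58 FPKM in control livers and 0.896, 1.29 and 1.14 in lipophagy livers. Every lipophagy liver lay below every control liver, and the controls lay close together. Means were 1.69 ± 0.104 and 1.11 ± 0.200 FPKM (SD, n = 3), a log2 change of -0.35 (SE 0.093, limma adjusted p = 0.146). The two-sided exact permutation p was 0.1, the smallest that 3 livers against 3 can give.

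Fosb was near the limit of detection. Its FPKM values were whole multiples of 1 step and corresponded to 4, 1 and 0 fragments in control livers and 1, 1 and 3 in lipophagy livers. The 0 in control 3 allows up to 0.0243 FPKM (3 fragments, counting error only). No fold change is given, since both groups were at the level of a few fragments.

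Summed over Fos, Fosb and Fosl2, the FOS family was at 2.97, 3.48 and 2.75 FPKM in control livers and 1.43, 2.05 and 2.31 in lipophagy livers. The groups did not overlap (3.06 ± 0.375 against 1.93 ± 0.455 FPKM, SD, n = 3, two-sided exact permutation p = 0.1). Fosl2 made up 48.7% to 63.2% and Fos 36.3% to 51.0% of this sum, and Fosl2 was above Fos in 4 of the 6 livers.

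JUN proteins pair with each other as well as with FOS proteins. Jun, the founding member and a target of JNK, had 9.71, 10.3 and 8.92 FPKM in control livers and 6.58, 6.95 and 7.56 in lipophagy livers. All lipophagy livers lay below all control livers. Means were 9.65 ± 0.695 and 7.03 ± 0.496 FPKM (SD, n = 3), a log2 change of -0.41 (SE 0.087, two-sided exact permutation p = 0.1). Its limma adjusted p of 0.131 was the lowest of the 9 tested genes, and its spread between livers was small, with 69.8% of all tested genes having a larger residual SD.

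Junb, which often limits JUN activity, had 27.0, 33.1 and 32.3 FPKM in control livers and 24.9, 28.2 and 25.5 in lipophagy livers. Control 1 lay below lipophagy 2, and this was the only pair in the opposite order. The log2 change was -0.22 (SE 0.10, limma adjusted p = 0.266).

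Jund, the JUN gene with the most constant expression in resting cells, had 26.8, 35.3 and 33.4 FPKM in control livers and 27.7, 25.2 and 22.1 in lipophagy livers. Here too a single pair was in the opposite order, control 1 and lipophagy 1. The log2 change was -0.33 (SE 0.12, limma adjusted p = 0.219).

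The JUN family sum was 63.5, 78.7 and 74.6 FPKM in control livers and 59.1, 60.4 and 55.2 in lipophagy livers. Every lipophagy liver was below every control liver (72.3 ± 7.90 against 58.2 ± 2.71 FPKM, SD, n = 3, two-sided exact permutation p = 0.1). The shares within the family were similar between livers. Junb took 42.0% to 46.7%, Jund 40.1% to 46.8% and Jun 11.1% to 15.3%. The JUN family sum was 21.4, 22.6 and 27.2 times the FOS family sum in control livers and 41.4, 29.5 and 23.8 times in lipophagy livers. These ratios overlapped between groups, because lipophagy 3 lay below control 3.

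**Figure D3:**
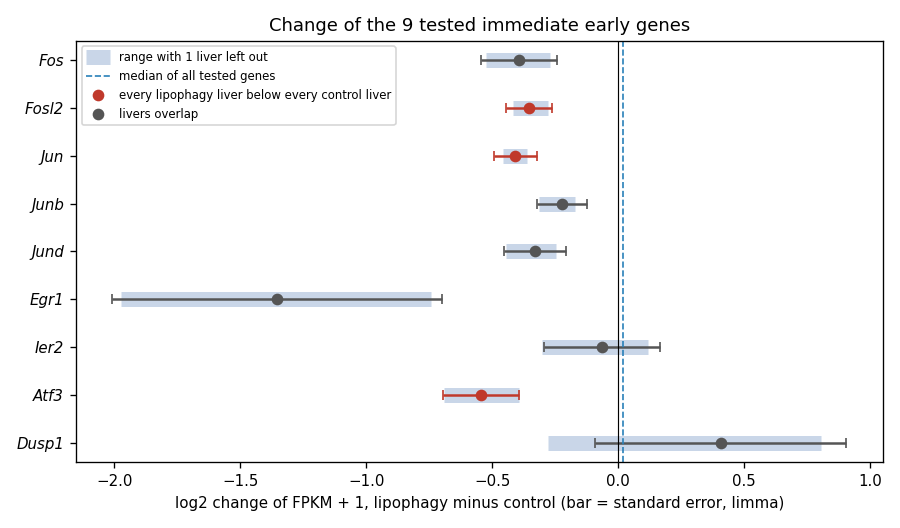
Log2 change of FPKM + 1 (lipophagy minus control, x axis) of the 9 tested genes, with limma standard errors as thin bars and the range obtained when 1 liver is left out as wide pale bars. The dashed line marks the median of all tested genes (0.020), and the points of Fosl2, Jun and Atf3 are the 3 without overlap between groups.

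Egr1 had the widest range. It was at 4.58, 29.6 and 12.3 FPKM in control livers and 1.76, 10.1 and 3.42 in lipophagy livers, an estimated 182 to 3052 fragments, so counting error was small beside the spread. Its highest value was 16.8 times its lowest over the 6 livers, 6.46 times within controls and 5.75 times within lipophagy livers. The groups overlapped, since control 1 lay below lipophagy 2. Means were 15.5 ± 12.8 and 5.11 ± 4.44 FPKM (SD, n = 3), a log2 change of -1.35 (SE 0.65, limma adjusted p = 0.293). Only 0.278% of all tested genes had a larger residual SD (1.13 for Egr1). The change was the widest of the 9 genes and did not pass the adjusted threshold, and without control 2 it was -0.74.

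The summed bile duct markers varied over the livers in a similar order. Their summed level was 142, 245 and 253 FPKM in control livers and 96.3, 202 and 106 in lipophagy livers. Control 2 and control 3 were thus high and lipophagy 1 was lowest, as with Egr1. Most of this sum was Spp1, which is also listed below as an AP-1 target. Spp1 had 131, 227 and 236 FPKM in control livers and 87.4, 187 and 97.7 in lipophagy livers. All 7 tested bile duct markers of the 8 listed had a lower mean in lipophagy livers, with a median log2 change of -0.46. After quantile normalization 6 were lower (median -0.37), and none was at 0 in all livers. In limma 0 of the 7 had an unadjusted p below 0.05, where 7.97% of all tested genes were lower and 11.5% higher at that p. The part of these markers in the values of Egr1 was not tested. Krt19, the keratin of bile duct cells, had 1.91, 4.16 and 4.05 FPKM in control livers and 1.43, 3.36 and 1.37 in lipophagy livers. Unlike the sum, it was lowest in lipophagy 3.

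Ier2, an immediate early gene of a nuclear protein with little known of its action, had 11.9, 22.0 and 18.3 FPKM in control livers and 12.3, 17.3 and 19.6 in lipophagy livers. The groups covered nearly the same range. The log2 change was -0.064 (SE 0.23, limma adjusted p = 0.896), and its sign depended on single livers: it was 0.12 without control 2 and also 0.12 without lipophagy 1.

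Atf3, a stress-induced factor that represses many promoters and can pair with JUN, had 5.56, 7.01 and 8.93 FPKM in control livers and 3.97, 4.65 and 4.98 in lipophagy livers. Every lipophagy liver was below every control liver. Means were 7.16 ± 1.69 and 4.53 ± 0.512 FPKM (SD, n = 3), so the lipophagy livers also lay closer together. The log2 change was -0.54 (SE 0.15, limma adjusted p = 0.156, two-sided exact permutation p = 0.1).

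Dusp1 differed most from the other tested genes in lipophagy 3. Among the controls it was lowest in control 2, where 6 of the 9 tested genes had their highest value. It had 9.24, 6.56 and 8.13 FPKM in control livers and 6.90, 5.81 and 29.6 in lipophagy livers, with lipophagy 3 above all others. Its log2 change was 0.41 (SE 0.50, limma adjusted p = 0.670), and without lipophagy 3 it was -0.28. In the same liver Egr1 was at 3.42 FPKM, between the other lipophagy livers, and Fos was the highest of its group.

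Other genes high in lipophagy 3 were picked after their values were seen. Per1, a clock gene that glucocorticoids also induce, had 8.71 FPKM there and 1.76 to 3.28 in the other livers. Klf10, a zinc finger factor induced by TGF-beta, had 26.3 FPKM there and 2.81 to 8.20 elsewhere. Tat, a liver enzyme of tyrosine breakdown, had 1004 FPKM there and 240 to 803 elsewhere, and Pck1, the gluconeogenic enzyme, 1391 against 497 to 828. What Dusp1 in this liver shares with these genes was not tested.

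**Figure D4:**
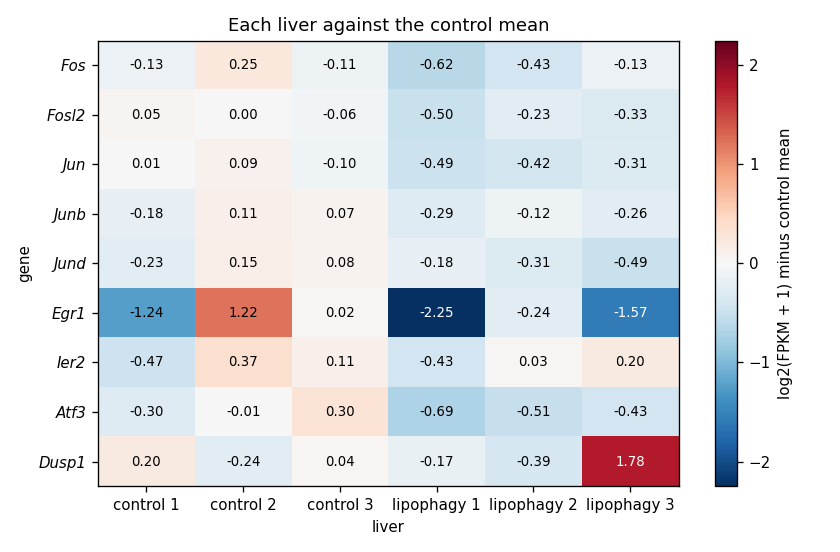
Log2(FPKM + 1) of the 9 tested genes in each liver, minus the mean of the 3 control livers, with the value printed in each cell. Lipophagy 1 is below the control mean in all 9 genes, and Dusp1 in lipophagy 3 is 1.78 above it.

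By liver, control 2 had the highest value of 6 of the 9 tested genes and lipophagy 1 the lowest value of 6. Control 2 had neither the greatest nor the least estimated depth (23.8 M fragments), and lipophagy 1 was at the same depth. Profiles were compared after each gene was centred and scaled to unit SD over the 6 livers. Fos lay nearest to the mean profile of the 9 genes (root mean square difference 0.346 SD) and Dusp1 farthest from it (1.34 SD). Outside these genes, the closest profiles to that mean were those of Nt5c2, a cytosolic nucleotidase (0.114), Fzd7, a WNT receptor (0.124), Emp1, an epithelial membrane protein (0.146), Mcm4, a subunit of the replicative helicase (0.149), and Chil3, a macrophage lectin (0.153). Their log2 changes ranged from -0.52 (Emp1) to -0.15 (Mcm4), with adjusted p values from 0.157 to 0.311 in limma. The profiles nearest to that of Dusp1, again looked up after its values were seen, were those of Lgr4 (0.101) and Hdc (0.116).

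Partners and relatives of these genes were mostly lower by small amounts. Of 12 other leucine zipper partners, 10 were tested, 8 were lower and 2 higher, with a median log2 change of -0.087, and 1 was lower at an unadjusted p below 0.05 (7.97% of all tested genes were). That was Batf, an AP-1 partner of immune cells, with 1.84, 1.66 and 1.52 FPKM in control livers and 1.27, 0.955 and 0.935 in lipophagy livers (log2 change -0.38, adjusted p = 0.135). Others were Atf7 (-0.19), Mafk (-0.13) and Batf3 (-0.22), with adjusted p values between 0.303 and 0.478.

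Of 8 other genes of the EGR and IER families and the NAB corepressors that bind EGR proteins, 6 were tested and 6 were lower with a median of -0.22 (5 lower with each liver scaled to the same median). Of these, 3 were lower at an unadjusted p below 0.05, against 7.97% of all tested genes. Ier3, a survival factor induced by NF-kappaB, had 2.51, 2.18 and 2.23 FPKM in control livers and 0.778, 0.806 and 1.22 in lipophagy livers, without overlap. Its log2 change was -0.78 (SE 0.11, limma adjusted p = 0.0802). Egr2 (-0.34, adjusted p = 0.156) and Ier5l (-0.23, adjusted p = 0.206) did not overlap either, while Ier5 (-0.21, adjusted p = 0.395) did. Nab1 (-0.0013) and Nab2 (-0.037) were nearly equal between groups, and Egr4 was at 0 in every liver.

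A wider list of 32 immediate early genes had 26 tested, 19 lower and 7 higher, with a median of -0.11. At an unadjusted p below 0.05, 11 were lower and 2 higher, against 7.97% and 11.5% of all tested genes. Phlda1, a pleckstrin homology protein, fell and was the only one to pass the adjusted threshold (log2 change -2.15, SE 0.19, adjusted p = 0.0198). It had 42.1, 57.7 and 69.3 FPKM in control livers and 9.25, 12.9 and 13.1 in lipophagy livers. Myc, the growth factor-induced proto-oncogene, had 11.6, 6.14 and 15.1 FPKM in control livers and 1.63, 2.11 and 1.20 in lipophagy livers, a log2 change of -2.11 with an adjusted p of 0.0710. The highest change was that of Klf10 (0.90, adjusted p = 0.375), and the 2 higher genes at an unadjusted p below 0.05 were Per1 and Zfp36.

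Upstream regulators were examined as mRNA levels, not as activities. Of 10 SRF, ternary complex and CREB regulators, 6 were lower and 4 higher (median -0.023, turning to 0.011 after quantile normalization and -0.15 with the same sum of FPKM), and 0 had an unadjusted p below 0.05 in limma, against 7.97% of all tested genes lower and 11.5% higher. Their changes ran from -0.18 (Crtc2, a CREB coactivator) to 0.093 (Elk4, a ternary complex factor). Of 20 MAP kinases and related kinases, 19 were tested, 8 lower and 11 higher (median 0.015), and with the same sum of FPKM 17 were lower and 2 higher. Map3k1, which acts above JNK, was the lowest (-0.39, adjusted p = 0.124), and Map2k6, which activates p38, the highest (0.66, adjusted p = 0.204).

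The other MAP kinase phosphatases, relatives of Dusp1, were mostly lower. Of 9 listed, 6 were tested and 6 were lower with a median of -0.27 (5 lower, median -0.22, after quantile normalization). In 4 of the 6 every lipophagy liver lay below every control liver, as in 10.8% of all tested genes. Dusp10, specific for JNK and p38, had 2.38, 2.95 and 2.40 FPKM in control livers and 1.83, 1.94 and 1.46 in lipophagy livers (log2 change -0.38, adjusted p = 0.151). Dusp7, specific for ERK, was nearly equal (-0.025, adjusted p = 0.894).

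Of 15 textbook AP-1 targets, 12 were tested, and 12 were lower in lipophagy livers with a median of -0.33 (10 lower, median -0.28, after quantile normalization). Of these, 8 were lower at an unadjusted p below 0.05 and 8 without overlap, against 7.97% and 10.8% of all tested genes, and 0 passed the adjusted threshold in limma. Ccl2, the monocyte chemokine, had the lowest change, with 8.39, 5.94 and 4.99 FPKM in control livers and 4.07, 2.76 and 3.25 in lipophagy livers (-0.76, SE 0.18, adjusted p = 0.134). Il1b, an inflammatory cytokine, was at -0.55 (adjusted p = 0.0915), Hmox1, heme oxygenase, at -0.42 (0.124) and Tgfb1, the fibrogenic cytokine, at -0.33 (0.144). Plaur, the urokinase receptor, had the change nearest to 0 (-0.014).

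Of 10 textbook EGR1 targets, 9 were tested, 7 lower and 2 higher (median -0.31). At an unadjusted p below 0.05, 5 were lower and 1 higher, against 7.97% and 11.5% of all tested genes. Pdgfa and Pdgfb, growth factors of stellate cells, were at -0.43 (adjusted p = 0.186) and -0.38 (0.134). Icam1, an adhesion molecule, was at -0.33 (0.144). Gdf15, a stress-induced cytokine, lay the other way, with 9.31, 17.5 and 7.75 FPKM in control livers and 27.7, 25.8 and 20.8 in lipophagy livers (1.11, SE 0.26, adjusted p = 0.134). Tgfb1 stands in both target lists and Spp1 is both an AP-1 target and a bile duct marker, so these counts are not independent.

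**Figure D5:**
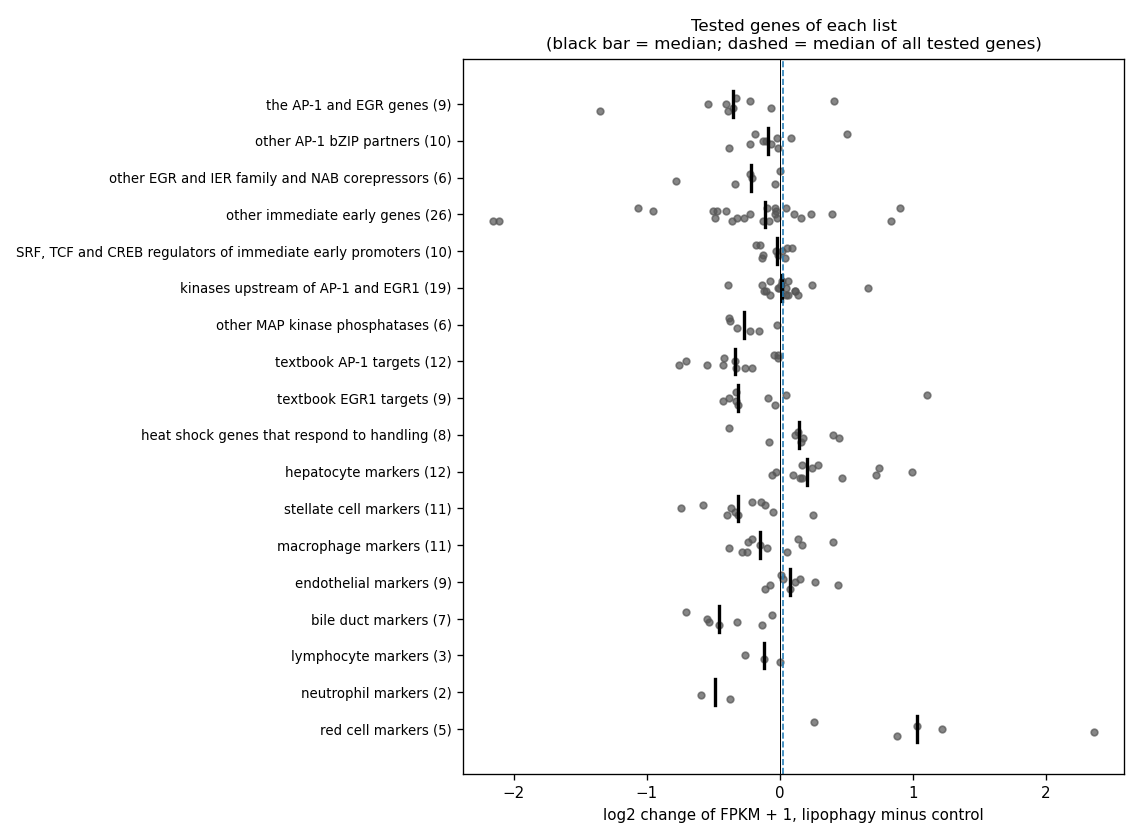
Log2 change of FPKM + 1 (lipophagy minus control, x axis) of every tested gene of each list (points), with the list median as a black bar and the median of all tested genes as a dashed line. The top row holds the 9 tested AP-1 and EGR genes. The 12 tested AP-1 targets lie below 0 (10 of them after quantile normalization), and the SRF, ternary complex and CREB regulators lie around 0.

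Markers of other cell types were measured beside these genes. Of 12 stellate cell markers, 11 were tested, 10 lower and 1 higher (median -0.32). In limma 6 were lower and 0 higher at an unadjusted p below 0.05, against 7.97% and 11.5% of all tested genes. In 7 every lipophagy liver lay below every control liver, as in 10.8% of all tested genes. Their summed level was 174 to 186 FPKM in control livers and 137 to 169 in lipophagy livers. The lowest change was that of Col1a1, collagen (-0.75), and the highest that of Lrat, of resting stellate cells (0.25). Of 12 macrophage markers, 11 were tested, 7 lower and 4 higher (median -0.15), or 10 lower and 1 higher (median -0.34) with the same sum of FPKM. They summed to 547 to 727 and 542 to 670 FPKM. The lowest was Cd68 (-0.38) and the highest Vsig4 (0.40), a marker of resident Kupffer cells. Of 12 hepatocyte markers, 2 were lower and 10 higher (median 0.21), but 6 were lower and 6 higher with the same sum of FPKM. They summed to 58511 to 65279 and 70588 to 93045 FPKM. Their lowest was Apoa1 (-0.062) and their highest Tat (0.99). Most of the stellate cell sum was Dcn, of the macrophage sum Lyz2 and of the hepatocyte sum Alb. Dcn overlapped between groups (115 to 133 FPKM in control livers, 95.0 to 130 in lipophagy livers). The part of these cell types in the values of the AP-1 and EGR genes was not tested.

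Of 10 endothelial markers, 9 were tested, 2 lower and 7 higher (median 0.072, and -0.052 with the same sum of FPKM), from Pecam1 (-0.11) to Clec4g (0.43), summed to 26.8 to 33.5 and 30.8 to 48.8 FPKM. Lymphocyte and neutrophil lists had 3 and 2 tested genes, from Nkg7 (-0.26) to Cd3g (0.0018) and from S100a9 (-0.60) to S100a8 (-0.37). Bile duct changes ran from Spp1 (-0.71) to Sox9 (-0.060). Red cell markers were summed to 107 to 130 FPKM in control livers and 118 to 443 in lipophagy livers, highest in lipophagy 2, from Alas2 (0.26) to Hba-a2 (2.36), and reads of the globin genes are shared between near-identical copies.

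Heat shock genes, which respond to handling of tissue as immediate early genes do, had a direction that depended on the scaling. Of 8 tested, 2 were lower and 6 higher (median 0.14), or 5 lower and 3 higher with the same sum of FPKM, from Hspb1 (-0.38) to Hspa8 (0.45), and their summed level was 648, 997 and 914 FPKM in control livers and 1107, 995 and 1205 in lipophagy livers. Most of this sum was Hspa8, with 554, 801 and 758 FPKM in control livers and 974, 829 and 1056 in lipophagy livers. Control 2, highest in 6 of the 9 tested AP-1 and EGR genes, had the highest sum of the controls. Lipophagy 1, lowest in 6 of the 9, had a sum above that of every control. The part of the heat shock genes in the results was not tested.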

How the data were processed

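Liver RNA of 3 control and 3 lipophagy mice was sequenced as stranded poly(A) libraries in 100 bp paired-end mode, on a HiSeq per the labels and on a NovaSeq per the study's methods. The authors deposited FPKM values per gene symbol and liver. The submitters' processing notes name TopHat2 2.0.13, Bowtie2 2.2.3, SAMtools 0.1.19, Cufflinks 2.2.1 and mm10 (GRCm38), without their roles.

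Log2(FPKM + 1) was computed, and 11493 genes whose mean reached 0.5 FPKM entered limma 3.58.1, run in R 4.3.3 (intensity trend, no block, two-sided, Benjamini-Hochberg, threshold 0.05). Single values were compared by exact permutation, whose smallest p is 0.1. Depth was estimated from FPKM steps and GENCODE transcript lengths less 150 bases, so fragment numbers are estimates and cover counting error only. Fosb failed the filter, so the median of 10 genes uses its unfiltered log2 difference. Motif counts and figures used Python 3.11.15 with numpy 2.4.6, pandas 2.3.3 and, for drawing, matplotlib 3.10.9. The model was tested on simulated data.

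The genes and lists were chosen with earlier results of these data known. Named from each list were genes with an adjusted p below 0.05 and those with the highest and lowest change. For relatives and targets, up to 3 more were named by p. Exceptions are genes said to be picked later, and Krt19, Nab2, Egr4, Zfp36, Alb, Dcn and Lyz2, also picked after their values were seen. The entry of a further gene is not reported here. Of the marker genes, Trac and Ly6g were not matched in the table. Alternatives were other pseudocounts (0.1, 0.5), filters (none, 1 FPKM), scalings, no trend, a replicate block and each liver left out.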

Additional observations from a re-analysis of the deposited data

How the results depend on the processing

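Of the 3 genes with an adjusted p below 0.05, the count was 1 without a filter, 104 with each liver scaled to the same sum of FPKM, and 1 to 11 with 1 liver left out. The same sum of FPKM moved the median of all genes from 0.020 to -0.13, and genes with an unadjusted p below 0.05 from 916 lower and 1327 higher to 2506 and 236, while quantile normalization gave 899 and 745. The median of the 10 genes was then -0.52, against -0.34 as reported and -0.36 to -0.26 with 1 liver left out. Relative to all genes it was -0.39, against -0.36 as reported and -0.39 to -0.28 with 1 liver left out. Of the 10 genes, 5 were without overlap after quantile normalization (10.2% of all tested genes), 6 with the same sum (27.2%) and 3 to 7 with 1 liver left out (14.3% to 18.5%). Those with an unadjusted p below 0.05 and lower numbered 3 to 7 with 1 liver left out (5.24% to 8.2% of all tested genes), with 3 when control 2 was left out. Ier2 ranged from -0.30 to 0.12 and Dusp1 from -0.28 to 0.80 with 1 liver left out, and both changed sign, while Egr1 ranged from -1.97 without control 1 to -0.74 without control 2. All 10 genes were lower without lipophagy 3. With a replicate block, 43 genes were called, among them 1 of the 10, Egr1 (log2 change -1.35, unadjusted p = 6.10e-06), but the numbers are not shown to pair the livers: same-numbered livers deviated together with correlations of 0.25, 0.23 and -0.057, and not every liver correlated best with its own number. The cause of these shifts was not tested. Each group has 3 livers, and the estimated fragments of Fos and Fosb limit what can be seen in them.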
